A study of Drosophila melanogaster with 2 samples.

Results

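The genes described here are the translation initiation factor genes of Drosophila melanogaster, taken as every protein-coding gene of the Ensembl annotation BDGP6 whose symbol starts with eIF. There were 44 such genes among 13968 protein-coding genes on the chromosome arms. They were grouped by complex into 3 genes of eIF2, 5 of eIF2B, 16 of eIF3, 13 of the eIF4 family and 7 other factors. The measurement was binding of Irbp18, mapped by chromatin immunoprecipitation followed by sequencing (ChIP-seq). Transgenic flies expressed Irbp18 (CG6272) fused to enhanced green fluorescent protein, and chromatin was taken from whole embryos of 0 to 24 h and precipitated through the GFP tag. The data are 2 biological replicates of this 1 group. No control library and no other condition was analysed here, so nothing below is a difference between conditions. Whole embryos mix all cell types and stages of that day, and the lists cannot tell in which cells a gene was bound. The labels do not name the promoter that drives the fusion protein.

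Translation initiation brings a ribosome to the start codon of an mRNA. The eIF2 complex carries the initiator tRNA and is recharged with GTP by eIF2B, eIF3 holds the small ribosomal subunit, and the eIF4 factors bind and unwind the capped end of the mRNA. eIF1 and eIF1A act in the choice of the start codon, eIF5 triggers GTP hydrolysis on eIF2, and eIF5B joins the large subunit. Irbp18 is a basic leucine zipper protein of the C/EBP type. It pairs with Xrp1 and with crc, the fly ATF4, whose own translation increases when eIF2 is phosphorylated under stress.

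Peaks were deposited as lists in dm6 coordinates, made by an irreproducible discovery rate (IDR) analysis in which a low IDR marks a peak that recurs between sets. A site is a peak of the conservative pooled list, which holds 3426 peaks on the arms, and a gene has a site when the summit lies within 500 bp of any of its transcript starts. A candidate is a peak of the longer ranked list behind it, most of which missed the threshold. The signal value is the authors' own height of a peak in a scaling that the labels leave unstated, so it is compared only within a list. Since no read counts are in these lists, the depth of the libraries is unknown. The shorter replicate lists hold 2748 peaks on the arms for replicate 1 and 2003 for replicate 2.

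The windows below show the sequence under the summits of 6 eIF sites, chosen because they include a high site (eIF4EHP), the sites with a DRE word (eIF3a, eIF3f1, eIF1) and AT-rich sites without one (eIF1A, eIF2D). They were read from the RefSeq release 6 genome, the sequence that dm6 names, within 50 bp of the summit on the strand of the eIF gene, and only bases outside annotated exons are printed. Capitals mark the DRE word TATCGATA at eIF3a, eIF3f1 and eIF1 and the AP-1 word at eIF4EHP. The DRE (DNA replication-related element) is a promoter word of flies bound by the factor DREF, and the AP-1 word TGACTCA, printed on its other strand in the eIF4EHP window, is bound by other bZIP proteins. The eIF3a window is 3R:4433896-4433964 and the eIF3f1 window 3R:4714183-4714247, both on the minus strand. The eIF4EHP window is 3R:24109147-24109247 and the eIF2D window 3R:29151816-29151916, also on the minus strand. The eIF1 window is 3L:3223026-3223126 and the eIF1A window 3R:18274534-18274634, both on the plus strand.
eIF3a: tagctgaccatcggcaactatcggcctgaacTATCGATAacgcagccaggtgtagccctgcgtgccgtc
eIF3f1: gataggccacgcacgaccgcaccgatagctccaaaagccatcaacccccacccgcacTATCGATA
eIF4EHP: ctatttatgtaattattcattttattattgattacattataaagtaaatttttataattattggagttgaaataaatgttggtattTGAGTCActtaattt
eIF1: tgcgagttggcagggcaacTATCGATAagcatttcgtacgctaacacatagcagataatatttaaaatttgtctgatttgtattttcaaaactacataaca
eIF1A: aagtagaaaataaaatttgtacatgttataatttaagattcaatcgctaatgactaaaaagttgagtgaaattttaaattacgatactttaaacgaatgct
eIF2D: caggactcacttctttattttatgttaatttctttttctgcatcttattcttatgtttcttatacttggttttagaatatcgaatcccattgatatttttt

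A site lay at the start of 12 of the 44 eIF genes (27.3%, exact Clopper-Pearson 95% interval 15.0 to 42.8%), against 2343 of all 13968 protein-coding genes (16.8%). The 12 genes were eIF3a, eIF3c, eIF3f1, eIF3h, eIF3m, eIF4A, eIF4EHP, eIF1, eIF1A, eIF2D, eIF5B and eIF6. For 8 of the 44 (18.2%, 8.19 to 32.7%) the site was also in both replicate lists, with a summit within 100 bp in each, against 9.61% of all protein-coding genes. A candidate of any IDR lay at 31 of the 44 (70.5%, 54.8 to 83.2%), against 75.5% of all protein-coding genes. With the IDR limit at 0.05 the count was 14 of 44 (31.8%, 18.6 to 47.6%), against 21.1%. Each of these 4 intervals includes the share of all protein-coding genes. The intervals cover counting error over genes only, and neighbouring genes are not independent.

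By complex, a site lay at 0 of 3 eIF2 genes, 0 of 5 eIF2B genes, 5 of 16 eIF3 genes (31.2%), 2 of 13 eIF4 genes (15.4%) and 5 of the 7 other factors (71.4%). The 95% intervals were wide, 11.0 to 58.7% for eIF3, 1.92 to 45.4% for eIF4 and 29.0 to 96.3% for the other factors. For eIF2 and eIF2B together, 0 of 8 genes allowed a share of up to 36.9%. The interval of the other factors lies above the 16.8% of all genes. That group has the highest share of the 5 and gathers the factors outside the other complexes, so its interval is no test against all genes. With the list of replicate 2 alone it held 4 genes with a site. The groups overlap one another in their intervals, and no difference between them was tested.

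**Figure D1:**
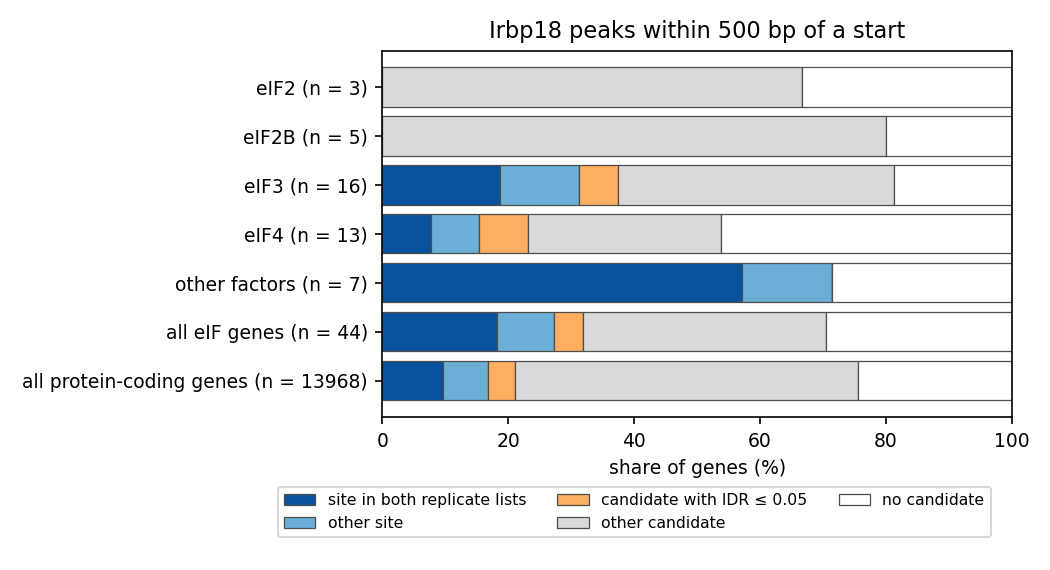
Share of genes (%, horizontal axis) by what lay within 500 bp of a start, for each complex, all 44 eIF genes and all 13968 protein-coding genes, with the number of genes beside each name. Dark blue is a site also in both replicate lists, light blue any other site, orange a candidate with an IDR of at most 0.05, grey any other candidate and white none. The eIF2 and eIF2B bars hold no site, and the blue parts of the other factors reach 71.4%.

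The highest eIF site was at eIF6 (FBgn0034915; 2R:23849246-23850301), which encodes a factor that binds the large ribosomal subunit during its assembly and keeps it from joining the small one. Its peak at 2R:23850241-23850569 had a signal value of 1409 in the pooled list, 854 in replicate 1 and 558 in replicate 2. It ranked 14 of 3426, at 10.7 times the median over all promoter sites, which are the sites within 500 bp of a protein-coding start. The summit was 116 bp upstream of the eIF6 start and lay in an exon of the noncoding antisense gene asRNA:CR45928, which also has a start within 500 bp. The peak cannot be assigned to either of these starts.

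Next came eIF4EHP (FBgn0053100; 3R:24063077-24108960), a cap-binding protein that competes with eIF4E and represses chosen mRNAs in the fly embryo. Its peak at 3R:24109022-24109359 had a signal value of 732 in the pooled list, 424 in replicate 1 and 303 in replicate 2, and ranked 75. The summit was 237 bp upstream of eIF4EHP and 139 bp upstream of CG18428, which faces away from it on the other strand. CG18428 was thus the nearer gene. The window printed above from this site was 16.8% G and C.

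The site of eIF3c (FBgn0034258; 2R:17665678-17669275), a core subunit of eIF3, ranked 201 with a signal value of 451 in the pooled list, 292 in replicate 1 and 153 in replicate 2. Its peak at 2R:17665523-17665804 had its summit 11 bp upstream of the start, the shortest distance among the 12. No other protein-coding start lay within 500 bp. Among the eIF sites of each replicate list, as of the pooled list, eIF6 was highest, then eIF4EHP, then eIF3c.

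The other 4 eIF3 sites were lower, with pooled signal values of 88.0 to 136. At eIF3f1 (FBgn0037270; 3R:4712882-4714182), a subunit of the MPN domain type, the peak at 3R:4714019-4714374 had 136 in the pooled list, 85.7 in replicate 1 and 53.3 in replicate 2. The summit of eIF3f1 was 15 bp upstream of its only start. At eIF3a (FBgn0037249; 3R:4429798-4433895), the large subunit that links the others to the ribosome, the peak at 3R:4433761-4434116 had 124 in the pooled list, 70.0 in replicate 1 and 63.7 in replicate 2. The eIF3a summit was 44 bp upstream of eIF3a and 26 bp upstream of CG1074, in a gap of 70 bp between the 2 starts.

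The sites of eIF3m and eIF3h were not in both replicate lists. For eIF3m (FBgn0033902; 2R:14163066-14164825), a subunit of the PCI domain type, the peak at 2R:14164562-14164917 had a signal value of 102 in the pooled list and 63.7 in replicate 1. It was absent from the list of replicate 2, where a candidate of 30.7 had an IDR of 0.854. In the pooled ranked list the eIF3m peak had an IDR of 0.00633. The eIF3m summit was 85 bp downstream of the start, in the 5′ UTR and 311 bp from the start of CG8323. It was the only site of the 12 with a score (913) under the ceiling of 1000. For eIF3h (FBgn0022023; 2L:5051193-5053094), another MPN subunit, the peak at 2L:5052313-5052668 had 88.0 in the pooled list, the lowest of the 12. It was in neither replicate list, and replicate 2 alone had a candidate within 100 bp, with 39.0 and an IDR of 0.176. In the pooled ranked list the eIF3h peak had an IDR of 0.00258. The eIF3h summit lay in an intron, 289 bp downstream of the nearest start and 603 bp downstream of the 5′ end of the gene, with the start of senju 352 bp away.

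Only 1 eIF4 gene besides eIF4EHP had a site. This was eIF4A (FBgn0001942; 2L:5981764-5985909), the RNA helicase that unwinds the mRNA end, with a peak at 2L:5981472-5981827 and a pooled signal value of 107. The summit was 114 bp upstream of the start. Neither replicate list held it: the nearest candidates had 74.4 with an IDR of 0.810 in replicate 1 and 47.9 with an IDR of 0.267 in replicate 2. The eIF4A site is thus in the pooled lists only, and its IDR in the conservative ranked one was 0.0011. Which sets each IDR compares is not established here, so absence from a replicate list does not show disagreement between the replicates.

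Of the other factors, eIF5B (FBgn0026259; 3L:3428658-3460977), the GTPase of subunit joining, had a peak at 3L:3460541-3460896. Its signal value was 232 in the pooled list, 129 in replicate 1 and 105 in replicate 2. The summit was 116 bp upstream of the nearest eIF5B start and 258 bp downstream of the 5′ end of the gene, so that it lay in the 5′ UTR of the longer transcript. At eIF1 (FBgn0035423; 3L:3223341-3224650) the peak at 3L:3222945-3223094 had 192 in the pooled list, 111 in replicate 1 and 85.7 in replicate 2. It was 150 bp wide, the narrowest of the 12, and its summit was 265 bp upstream of eIF1 and 116 bp upstream of RpL28, a ribosomal protein gene on the other strand.

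At eIF2D (FBgn0041588; 3R:29149896-29151794), a factor of ribosome recycling and re-initiation, the peak at 3R:29151688-29152043 had a signal value of 111 in the pooled list, 65.2 in replicate 1 and 44.8 in replicate 2. Its summit was 72 bp upstream of the only start. For eIF1A (FBgn0026250; 3R:18274665-18283005) the peak at 3R:18274406-18274761 had 98.8 in the pooled list and 51.0 in replicate 1. It was absent from the list of replicate 2, where a candidate of 40.7 had an IDR of 0.128. In the pooled ranked list the eIF1A peak had an IDR of 0.00281. The eIF1A summit was 81 bp upstream of eIF1A and 138 bp upstream of Vps39. The remaining 2 genes of this group, eIF2A and eIF5, had neither a site nor a candidate.

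**Figure D2:**
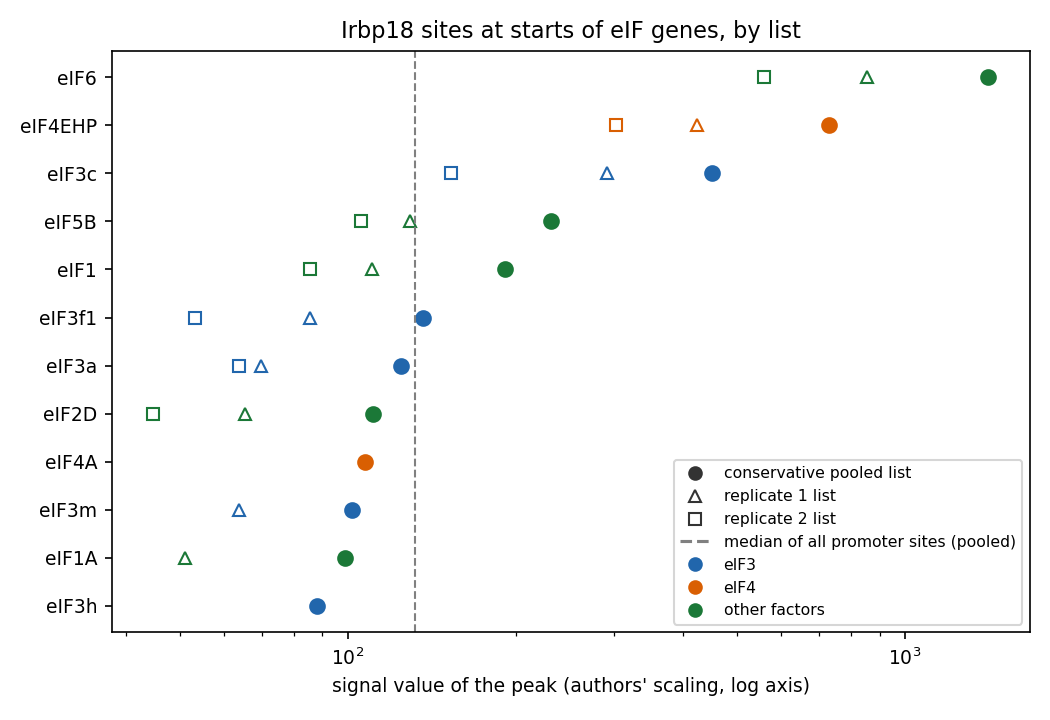
Signal value of each of the 12 eIF sites (horizontal log axis, the authors' scaling) in the conservative pooled list (filled circles) and in the lists of replicate 1 (triangles) and replicate 2 (squares), coloured by complex and ordered by pooled value. The dashed line is the median pooled value of all 1810 promoter sites, 132. Values are to be read within one kind of marker, since the scaling of the lists is not stated. In all 3 kinds eIF6 is farthest right, then eIF4EHP, then eIF3c, and the gaps for eIF4A, eIF3m, eIF1A and eIF3h are sites missing from 1 or both replicate lists.

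The pooled signal values of the 12 sites ran from 88.0 to 1409, against 2.03 to 2812 over all 1810 promoter sites. Their median was 130 (quartiles 106 and 286), against 132 (93.7 and 224), and 6 of the 12 were above the promoter median. Both replicate lists held 8 of the 12 (66.7%), against 928 of 1810 (51.3%). A further 2 were in 1 list (16.7%, against 26.4%) and 2 in neither (16.7%, against 22.4%).

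Position was likewise close to that of other promoters. The median summit of the 12 sites was 76.5 bp upstream of the nearest start of the eIF gene, and 10 of 12 (83.3%) lay upstream. Over all promoter sites the median was 78 bp and the share 80.4%, measured from the nearest start of any gene. The 2 measures differ at eIF3a, eIF4EHP and eIF1, whose summits were also upstream of the nearer gene, by 26, 139 and 116 bp. Without these, the median of the other 9 eIF sites was 72 bp upstream. By annotation 8 summits were between genes, 2 in a 5′ UTR, 1 in an intron, 1 in a noncoding exon and 0 in coding sequence. The annotation of summits was not counted over all promoter sites. The start of another protein-coding gene was within 500 bp at 6 of the 12, against 738 of 1810 (40.8%). In 3 of those 6, eIF3a, eIF4EHP and eIF1, the other gene was the nearer one.

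**Figure D3:**
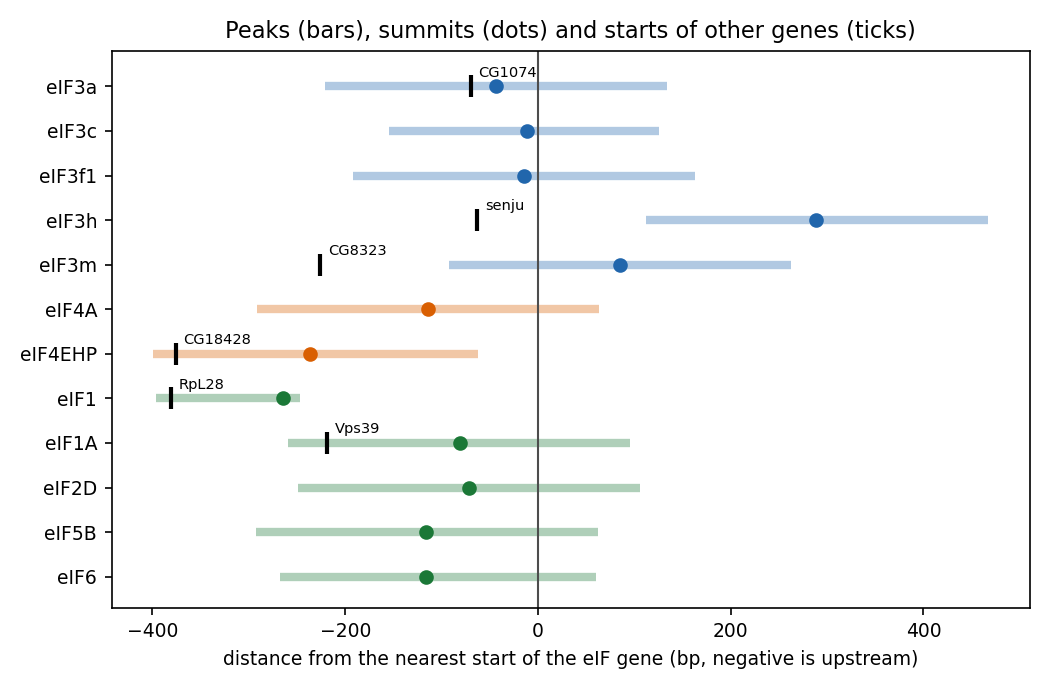
Peaks (bars) and summits (dots) of the 12 eIF sites along the distance from the nearest start of the eIF gene (bp, negative upstream, horizontal axis), coloured by complex, with ticks at the nearest starts of other protein-coding genes. The summits run from 265 bp upstream at eIF1 to 289 bp downstream at eIF3h, and the 4 ticks of CG1074, CG18428, RpL28 and Vps39 lie within the bars.

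Some of the eIF genes lie head to head with another gene. Counted was a neighbour on the other strand, facing away, with its 5′ end within 1000 bp upstream of the gene's own 5′ end. By this rule senju, whose start lies near the inner start of eIF3h, was not a neighbour of eIF3h. Such a neighbour was found for 20 of the 44 eIF genes (45.5%), against 33.3% of all protein-coding genes. A site lay at 8 of these 20 (40.0%) and at 4 of the other 24 (16.7%). Over all protein-coding genes the shares were 30.4% of 4650 with such a neighbour and 9.96% of 9318 without. This count was added after the data had been seen. Neither its difference from the share of all genes nor its part in the share of eIF genes with a site was tested.

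The 32 eIF genes without a site comprised 19 with a candidate and 13 with none. The lowest IDR of their candidates was at eIF3b (FBgn0034237; 2R:17536213-17539142), a core subunit of eIF3, with 0.0157 and a pooled signal value of 74.4. Next was eIF4G2 (FBgn0260634; 3R:23808285-23819237), an eIF4G scaffold protein, with 0.0298 and 87.3. The other 17 had IDRs of 0.159 to 0.843. Where an eIF gene had several candidates, the values here and below are those of its candidate of lowest IDR. On this basis the median signal value of the 19 was 37.7 (range 6.12 to 87.3). It was 33.3 over the 8203 protein-coding genes that had a candidate but no site.

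None of the 3 subunits of eIF2 had a site. eIF2beta (FBgn0004926) had a candidate of 50.7 with an IDR of 0.288, eIF2gamma (FBgn0263740) one of 26.5 with an IDR of 0.285, and eIF2alpha (FBgn0261609), the subunit phosphorylated under stress, had none. For the exchange factor eIF2B, the candidates of eIF2Balpha, eIF2Bdelta, eIF2Bepsilon and eIF2Bgamma had signal values of 22.6 to 48.1 and IDRs of 0.301 to 0.843. eIF2Bbeta (FBgn0024996; X:2704571-2706217) had no candidate, although it lies head to head with Ugalt, 719 bp apart. The site at the start of Ugalt, the highest of the whole list with 2812, was 689 bp upstream of eIF2Bbeta and so outside the 500 bp limit.

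In the eIF3 complex 11 genes had no site. Besides eIF3b, the lowest IDR was 0.159 at eIF3e, with a signal value of 47.7. eIF3d1, eIF3d2, eIF3g1, eIF3i, eIF3j and eIF3l had candidates of 6.12 to 40.6 with IDRs of 0.392 to 0.843, and eIF3f2, eIF3g2 and eIF3k had none. Of the subunits with 2 genes each (eIF3d, eIF3f and eIF3g), eIF3f1 was the only gene with a site.

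Of the eIF4 family 11 genes had no site. The cap-binding genes eIF4E1, eIF4E3, eIF4E4, eIF4E5, eIF4E6 and eIF4E7 had 0 of 6, a count that leaves out eIF4EHP, which has a site. This allows a share of up to 45.9%, against 16.8% of all protein-coding genes. The main cap-binding gene, eIF4E1 (FBgn0015218), had 6 candidates, the best with 42.6 and an IDR of 0.251. eIF4E6 and eIF4E7 had candidates of 37.7 and 8.62. No candidate was found for eIF4E3, eIF4E4 or eIF4E5, for the scaffold eIF4G1, or for eIF4B and eIF4H1, which assist the helicase, while eIF4H2 had one of 29.8 with an IDR of 0.491. eIF4G1 is on chromosome 4, where the list has 0 sites and the ranked list 15 candidates. On the X chromosome 0 of 7 eIF genes had a site, which allows up to 41.0%, against 364 of 2196 protein-coding genes (16.6%).

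**Figure D4:**
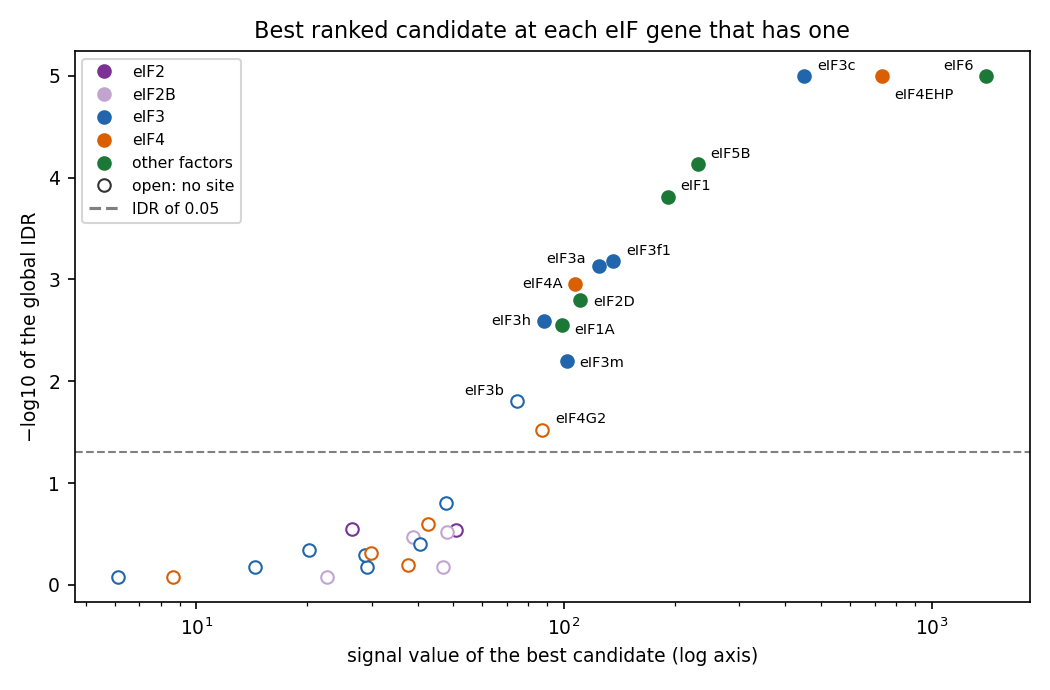
Candidate of lowest IDR at each of the 31 eIF genes that has one, with its signal value (horizontal log axis) and the negative decimal logarithm of its global IDR (vertical axis, ceiling 5), coloured by complex. Filled points have a site, open points have none, and the dashed line is an IDR of 0.05. The 12 filled points lie at 88.0 and above, eIF3b and eIF4G2 lie between them and the line, and the other 17 lie below it.

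Words of known factors were searched within 50 bp of the summits on both strands. The DRE was present at 3 of 12 eIF sites (eIF3a, eIF3f1 and eIF1), against 118 of 1810 promoter sites (6.52%). It lay 6 bp from the summit at eIF3a, 7 bp at eIF3f1, where it ended 1 bp upstream of the start, and 24 bp at eIF1. In the fixed window from 250 bp before to 50 bp after the 5′ end of each gene, a search added after the data had been seen, the DRE was at 12 of 44 eIF genes (27.3%), against 9.36% of all protein-coding genes. It was at 6 of the 12 eIF genes with a site, against 16.7% of all protein-coding genes with one. It was at 6 of the 32 without (18.8%), against 7.87% of all genes without one.

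The C/EBP-ATF response element TGATGNAA, a word bound by C/EBP and ATF4 dimers in mammals, was at 0 of 12 eIF summits, against 25 of 1810 (1.38%). The palindromes TTGCGCAA (C/EBP), TTACGTAA (PAR) and TGACGTCA (CRE) were also at 0 of 12, against 0.166% each, and the E-box CACGTG at 0 of 12, against 1.27%. The relaxed C/EBP word TTNCNNAA, which includes the first 2 of those palindromes, was at 4 of 12 (33.3%; eIF3c, eIF4EHP, eIF1 and eIF6), against 545 of 1810 (30.1%). The AP-1 word, added after the data had been seen, was at 1 of 12 (8.33%), eIF4EHP, 36 bp from the summit, against 0.884%. These matches are descriptions of the letters and not of bound sites.

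An initiator of the TCT kind, known from fly genes for ribosomal proteins and translation factors, was searched as TCTTT or CCTTT on the gene strand within 10 bp of a start. It was found at 6 of 44 eIF genes (13.6%), against 5.03% of all protein-coding genes. Among eIF genes with a site it was at 3 of 12 (eIF3f1, eIF3m and eIF4A), against 7.51% of all genes with a site, and among those without at 3 of 32 (9.38%; eIF3d1, eIF3g1 and eIF3i), against 4.52%.

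Base composition differed widely among the 12. G and C made up 16.8% of the 101 bp around the summit at eIF4EHP and 58.4% at eIF3a, with a median of 37.1%, against 36.6% over all promoter sites (quartiles 29.7 and 46.5%). eIF1A (22.8%), eIF2D (25.7%) and eIF3m (26.7%) were also below the lower quartile. eIF3f1 (56.4%) and eIF3a, both with a DRE, were above the upper one. The sites with the highest signal values, eIF6 and eIF4EHP, lay at 36.6% and 16.8%.

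**Figure D5:**
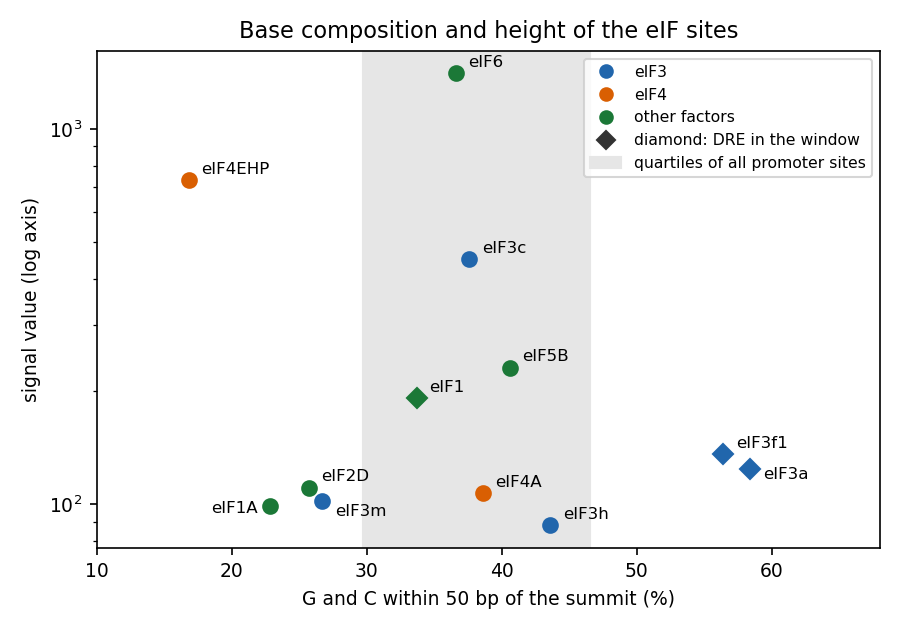
Signal value (vertical log axis) against G and C content within 50 bp of the summit (%, horizontal axis) for the 12 eIF sites, coloured by complex, with diamonds for windows that hold a DRE. The grey band runs from the lower to the upper quartile of all 1810 promoter sites, 29.7 to 46.5%. The AT-rich sites include both a high one, eIF4EHP at 732, and low ones such as eIF1A at 98.8, and 2 of the 3 diamonds are the G and C rich sites of eIF3f1 and eIF3a.

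Other genes of translation were counted in 4 lists, and 12 of 29 had a site (41.4%, 95% interval 23.5 to 61.1%), against the 16.8% of all protein-coding genes. These genes were chosen with earlier results of these data known, so the interval is no test of a difference. The count rests in part on replicate 1: both replicate lists held 7 of these 12 sites, the other 5 were in the list of replicate 1 alone, and the list of replicate 2 by itself gave 7 of 29 genes. Of the elongation and release factors 5 of 10 had a site. With pooled signal values in parentheses, eEF1gamma (336), eRF3 (208), eEF1alpha1 (148) and eEF5 (130) were in both replicate lists, and the recycling ATPase pix (113) was absent from that of replicate 2.

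Of the recycling and re-initiation factors 3 of 4 had a site. The sites of pelo (154) and MCTS1 (123) were in both replicate lists, that of HBS1 (123) was absent from the list of replicate 2, and DENR had none. The MCTS1 summit was 466 bp upstream of MCTS1, and the start of another protein-coding gene was nearer. Of the regulators of cap binding and scaffold partners 4 of 11 had a site. The site of the kinase mTor (220) was in both replicate lists. Its summit was 233 bp upstream of mTor, and the start of another protein-coding gene was nearer. Those of the Mextli scaffold mxt (126), the poly(A)-binding protein inhibitor Paip2 (111) and the eIF4G relative NAT1 (94.2) were absent from the list of replicate 2.

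The last list held 2 eIF2 kinases, a subunit of the eIF2 phosphatase and crc, and 0 of its 4 genes had a site. This allows a share of up to 60.2%, against 16.8% of all protein-coding genes. The count of 0 depends on the peak list: PPP1R15, the phosphatase subunit, had a site in the other pooled list and in the list of replicate 1. In the conservative ranked list PPP1R15 had a candidate of 90.5 with an IDR of 0.0164, and the eIF2 kinase PEK had one of 63.8 with an IDR of 0.0461, both within the looser limit of 0.05. The kinase Gcn2 had a candidate of 28.2 with an IDR of 0.508, and crc had none.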

How the data were processed

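Peak lists were deposited by the authors on dm6, per the labels and the file names. The sources used here do not name the aligner or the peak caller. The deposited score is a whole number with a ceiling of 1000, the deposited signal value is the authors' own peak height, and the deposited −log10 values are those of the global IDR, with a ceiling of 5. The pooled ranked list was tied to the conservative list by its rows (3454 of 3454 identical). A further 4 columns of values for single sets in the pooled ranked lists were not used. Replicate numbers come from the labels. Summits were assigned to every transcript start within 500 bp (Ensembl BDGP6.54, release 115), and the assignment was tested on simulated summits. Of 30618 annotated start codons, 99.8% read ATG in the release 6 sequence. Python 3.11.15, SciPy 1.17.1, NumPy 2.4.6 and Matplotlib 3.10.9 were used. No significance test was run. The genes, lists and words were chosen with earlier results of these data known, and Tor was matched to mTor. All eIF genes are accounted for, and those with a site are named with their values. Of those without one, candidates with an IDR of at most 0.05 are given singly by rule, and other values were added after they were seen. Of the other translation genes, those with a site are named. The eIF2 kinases, PPP1R15 and crc were named after their values were seen. Printed windows follow a rule of signal value and motif content outside 1 chromosome arm, and the windows of eIF1A and eIF2D were added for their composition. The alternatives tried were other lists, thresholds, distances, starts and windows.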

Additional observations from a re-analysis of the deposited data

How the results depend on the processing

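Over 9 alternatives the share of the 44 eIF genes with a site was 18.2 to 31.8%, against 11.0 to 21.1% of all protein-coding genes. It was the higher one under each, but the alternatives draw on overlapping peaks and the same genes and are not independent. A candidate of any IDR, not among the 9, lay at 70.5% of eIF genes, against 75.5% of all. The count of 12 eIF genes with a site ran from 8 to 14. With 1 replicate left out, the count was 8 to 11, the eIF3 count 3 to 4, the eIF4 count 1 to 2 and the count of other translation genes 7 to 15; the lower values come from the list of replicate 2 alone, which is shorter. The list of replicate 1 alone lost eIF3h and eIF4A and gained eIF4G2. A limit of 1000 bp gave eIF2B 1 gene, eIF2Bbeta, through the Ugalt site, while eIF2 stayed at 0 under all 9 alternatives. The eIF4 count was 1 at 200 bp, which drops eIF4EHP, and 1 when each site was given only to its nearest start, which also drops eIF4EHP. Under that assignment the DRE was at 1 eIF site and the relaxed C/EBP word at 2, since the sites of eIF3a, eIF4EHP and eIF1 belong to other genes. A motif window of 100 bp gave the C/EBP-ATF response element 1 match, at eIF4A, against 2.54% of all promoter sites. The number of eIF sites in both replicate lists was 8 with summits shared within 50, 100 or 200 bp. The median signal value was 124 in the other pooled list and 111 with the nearest start only. No paired analysis was possible because there is only 1 group. With read depth unknown, the lack of a site is a peak under the threshold and not shown absence of binding.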

Other observations

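Sites also lay inside or near eIF genes but away from their starts. Within eIF4EHP a peak at 3R:24099012-24099367, 9770 bp downstream of the start, had a signal value of 163, and within eIF5B a peak at 3L:3432679-3433034, 27746 bp from the nearest start, had 154. Within eIF4G2 a peak at 3R:23817570-23817925, 1071 bp from the nearest start, had 83.6. Both eIF4EHP and eIF5B thus had a lower second site beside that at the start. Among the 32 eIF genes without a site at a start, the nearest site on the arm was a median of 8991 bp away, from 689 bp at eIF2Bbeta to 207295 bp at eIF4B, with eIF4G1 left out because its chromosome has no site. For 7 of the 32 the nearest site was within 2500 bp of a start. Besides eIF2Bbeta and eIF4G2 these were eIF2Bgamma, 1247 bp from a site of 118 nearest to Vha36-1, eIF3d1, 1313 bp from one of 354 nearest to GILT2, and eIF3g1, 1331 bp from one of 187 nearest to Smyd3. The last were eIF3b, 2345 bp from a site of 82.8 nearest to Patronin, and eIF2beta, 2496 bp from one of 448 nearest to ver. The same distances over all protein-coding genes without a site are not given, so the median and the count of 7 have no background beside them. No cause of these placements was tested.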
